A study of Mus musculus with 2 samples.

Results

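Mir375, Mir7-1 and Mir7-2 are the mouse genes for miR-375 and for miR-7a, microRNAs known from hormone-secreting cells. They were found by symbol, through the gene identifiers of the count tables, and are 3 of the 1973 microRNA gene rows measured. All 3 had at least 10 counts in each library and entered the test. The small RNA came from the intestine of B6NCrl mouse embryos at 14.5 days of development, untreated as far as the labels say, in 2 libraries called biological replicates 2 and 1. By the labels a sample is 1 pup's intestine, yet its sex is given as pooled, and the counts do not resolve this. Replicate 2 was collected on day 15 of the month and replicate 1 on day 17, so day and replicate cannot be told apart. No other condition was sampled, so the comparisons are between genes and between these libraries.

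MicroRNAs are cut from hairpin precursors, and bases 2 to 8 of the mature strand, the seed, pair with the messenger RNAs that they repress. miR-375 was first described in pancreatic islets, where it restrains insulin secretion, and it is also found in the endocrine cells and the wider epithelium of the gut. miR-7 marks neurosecretory cells from invertebrates to mammals. In the mouse it is made from Mir7-1 and Mir7-2, which encode miR-7a, and from Mir7b. The tables hold no messenger RNA, so hormones and other defining markers of enteroendocrine cells were not measured, and the cells that made these microRNAs cannot be named from the counts.

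The sequences below, from RefSeq on build GRCm38.p6, show which of these genes can be told apart by reads. All 3 genes had a hairpin entry. The capitals in the mature strands mark the seed.
miR-7a-5p of Mir7-1 and Mir7-2: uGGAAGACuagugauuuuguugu
miR-7b-5p of Mir7b: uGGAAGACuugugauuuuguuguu
miR-7a-1-3p of Mir7-1: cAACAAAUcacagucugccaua
miR-7a-2-3p of Mir7-2: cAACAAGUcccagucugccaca
miR-7b-3p of Mir7b: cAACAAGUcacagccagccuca
miR-375-5p of Mir375: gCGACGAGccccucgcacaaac

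The miR-7 genes shared their main seed, and Mir7-1 and Mir7-2 had the same miR-7a-5p strand. Over 23 bases, with positions counted from 1 at the 5′ end, miR-7b-5p differed from it by A10U, outside the seed, and was 1 base longer. The opposite arms differed more: miR-7a-2-3p carried A7G, A10C and U21C relative to miR-7a-1-3p, and thereby a different seed, which miR-7b-3p also has. The Mir375 hairpin gives miR-375-5p, printed here, and miR-375-3p, the strand known from islets.

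The hairpins of the 3 genes show how far this identity reaches. In Mir7-1 and Mir7-2 the capitals mark the longest stretch that both hold, of 24 bases, and in Mir375 they mark miR-375-5p.
Mir7-1: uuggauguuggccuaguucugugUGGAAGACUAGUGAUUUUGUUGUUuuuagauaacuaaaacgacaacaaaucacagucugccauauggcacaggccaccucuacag
Mir7-2: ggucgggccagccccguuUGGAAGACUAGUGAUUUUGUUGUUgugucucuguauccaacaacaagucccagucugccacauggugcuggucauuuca
Mir375: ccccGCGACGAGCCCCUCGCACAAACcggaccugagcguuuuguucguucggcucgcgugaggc

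A read that lies within the 24-base stretch matches both miR-7a genes. Reads that aligned in several places went to no gene and made up 26.6% of the reads in the table of replicate 2 and 26.5% in that of replicate 1, and the tables do not say how many were miR-7a. The counts of Mir7-1 and Mir7-2 are therefore uncertain and may leave out most of their miR-7a-5p. Mir7b shared at most 14 bases in a row with either, and Mir375 at most 7 with any of them, so neither held an identical stretch of 20 bases with an annotated hairpin elsewhere. Whether a read of miR-7b-5p could also align to a miR-7a gene with a mismatch depends on settings that are not given in the sources used here. The tables do not divide a gene's counts between its arms.

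The genes lie far apart (GRCm38, GENCODE release M21). Mir375 (ENSMUSG00000065616.2) is on the minus strand of chromosome 1, 74900658 to 74900721, between Cryba2 and Cfap65 and outside both. Mir7-1 (ENSMUSG00000065434.1), on chromosome 13 from 58392779 to 58392886, lies on the minus strand in an intron of Hnrnpk, which runs the same way and encodes an RNA-binding protein. Mir7-2 (ENSMUSG00000065609.1), on the plus strand of chromosome 7 from 78888277 to 78888373, overlaps no other gene and lies 7481 bases before Aen. The nearest other counted gene was 309 kb from Mir375, 79.6 kb from Mir7-1 and 617 kb from Mir7-2, so none belongs to a microRNA cluster.

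Mir375 was an abundant microRNA of the embryonic intestine, while the reads assigned to the miR-7a genes were few. Levels are counts on the gene's strand scaled to 1000000 such counts over all gene rows (CPM), with no scaling by length, since the mature strands shown differ in length by at most 2 bases. Such counts totalled 3903472 in replicate 2 and 15090126 in replicate 1. Mir375 had 31459 counts in replicate 2, or 8059 CPM (Wilson 95% interval 7971 to 8148), and 52764 counts in replicate 1, or 3497 CPM (3467 to 3526). It held 0.806% of the counts of replicate 2 and 0.350% of those of replicate 1, and stood at place 27 and place 53 of all genes in these libraries. Its mean was 5778 ± 3226 CPM (SD, n = 2). These intervals cover counting error only, and PCR copies count as reads.

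Mir7-1, the copy within Hnrnpk, had 673 counts in replicate 2, or 172 CPM (160 to 186), and 1810 counts in replicate 1, or 120 CPM (115 to 126). Mir7-2, the copy on which work on the mouse pituitary has centred, had 157 counts in replicate 2, or 40.2 CPM (34.4 to 47.0), and 170 counts in replicate 1, or 11.3 CPM (9.69 to 13.1). Their means were 146 ± 37.1 and 25.7 ± 20.5 CPM (SD, n = 2 each). The remaining gene of the seed family, Mir7b, had the most assigned counts of the 3 miR-7 genes, with 2542 in replicate 2 (651 CPM) and 8162 in replicate 1 (541 CPM). Reads within the stretch shared by Mir7-1 and Mir7-2 are missing from the counts of both, so the place of Mir7b above them is uncertain.

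The order was Mir375, Mir7b, Mir7-1 and Mir7-2 in both libraries, and no neighbours in this order overlapped. Because ligation and PCR favour some small RNAs over others, the order is one of counts and not of molecules. The miR-7a genes may also stand too low in it, since reads that they share went to no gene. In mean level Mir375 stood between Mir182 (5799 ± 197 CPM) and Mir431 (5552 ± 508 CPM), and Mir181c, Mir541, Mir379 and Mir181d came next on either side, at 5362 to 6147 CPM. The gaps from Mir375 to these 6 were all smaller than its own SD. Mir7-1 stood between Mir24-2 (149 ± 12.8 CPM) and Mir30b (143 ± 2.40 CPM), with Mir410, Mir679, Mir673 and Mir500 next, at 139 to 154 CPM. Mir7-2 lay between Mir144 (25.9 ± 3.93 CPM) and Mir669e (23.7 ± 3.11 CPM), with Mir326, Mir582, Mir450-1 and Mir1198 next, at 23.0 to 27.0 CPM. Here too every gap was smaller than the SD of the member itself, which in each case exceeded that of all 6 neighbours.

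**Figure D1:**
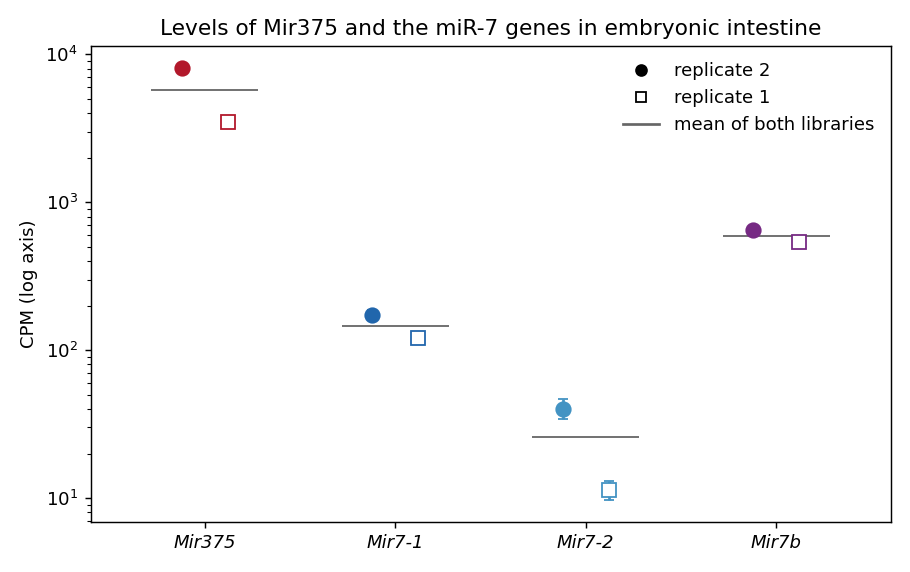
Level of Mir375, Mir7-1, Mir7-2 and Mir7b in CPM on a log axis, with filled circles for replicate 2, open squares for replicate 1 and a line at their mean. Bars are Wilson 95% counting intervals, smaller than the symbol for most points. Every gene is higher in replicate 2, and Mir375 lies above Mir7b, Mir7-1 and Mir7-2 in both libraries.

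All 3 genes were higher in replicate 2 than in replicate 1, and Mir375 and Mir7-2 by more than 2-fold. Mir7-2 was 3.57-fold higher (95% counting interval 2.86 to 4.46), Mir375 2.30-fold (2.27 to 2.34) and Mir7-1 1.44-fold (1.31 to 1.57). On the log2 scale these differences are 1.84, 1.20 and 0.52. Mir7b was 1.20-fold higher (1.15 to 1.26), so that the counting intervals of the 4 genes did not overlap one another. In a bulk sample, a change in the number of cells of a type and a change in RNA per cell cannot be told apart.

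A two-sided exact binomial test compared each gene's counts with the split expected from the library totals, with Benjamini-Hochberg adjustment over the 363 genes that had at least 10 counts in both libraries. It compares these libraries and not conditions. Mir7-2 (adjusted p = 1.61e-27 by the exact test), Mir7-1 (adjusted p = 3.73e-14 by the exact test) and Mir375, whose p was too small for the program to hold, were called higher in replicate 2. Such calls were common at this depth: 29.8% of the tested genes were called higher in replicate 2. A difference over 2-fold was rarer, with 2 of the 3 genes against 2.20% of the tested genes higher by that much. No tested gene was lower by that much.

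Among the 277 genes with at least 50 counts in both libraries, Mir7-2 and Mir375 had the largest differences of all and were the only ones over 2-fold, or 0.722%. The median absolute log2 difference of these genes was 0.12 and the 95th percentile 0.48. Mir7-1, at 0.52, was just past that percentile and took place 10 from the top, and Mir7b, at 0.27, took place 37. Over all 363 tested genes, low ones included, the 95th percentile was 0.73, and Mir7-1 lay within it. In that wider set Mir7-2 took place 2 from the top, Mir375 place 7 and Mir7-1 place 32. The median signed difference of the tested genes was 0.06, so the scaling of the libraries adds little to these values.

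**Figure D2:**
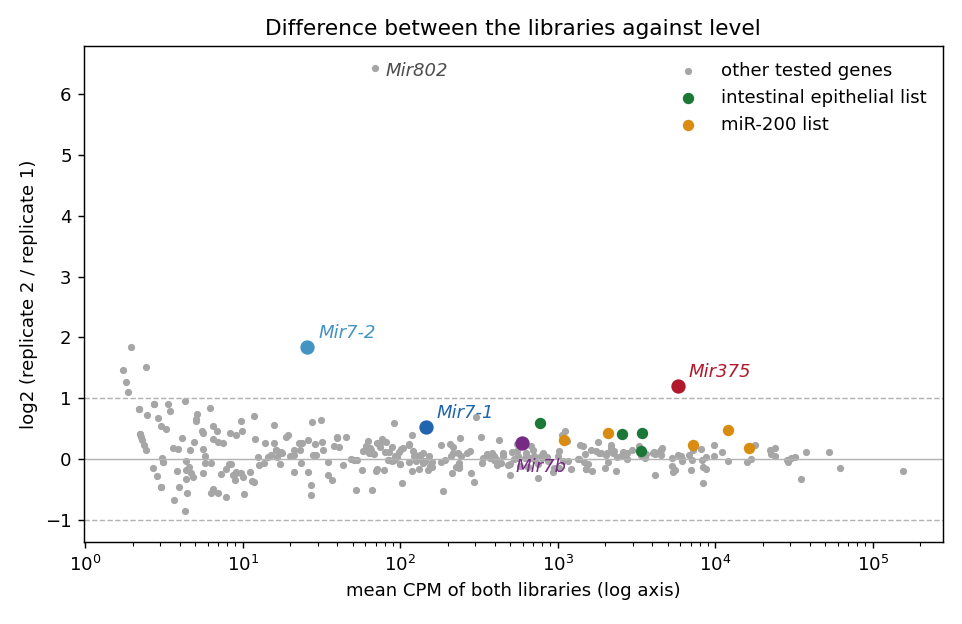
Log2 difference between replicate 2 and replicate 1 against mean level in CPM (log axis) for the 363 tested genes, with dashed lines at 2-fold either way. Mir375 and Mir7-2 lie above the upper line at 1.20 and 1.84, while Mir7-1, Mir7b, the intestinal epithelial genes and the miR-200 genes lie below it. In all, 8 genes lie above that line, and the highest is Mir802 at 6.42.

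Among genes with at least 50 counts in both libraries, none but Mir7-2 was as far apart as Mir375. The nearest to it in difference were Mir1930 (log2 difference 0.71), Mir451a (0.69), Mir383 (0.63), Mir30c-2 (0.61) and Mir5099 (0.60), which lay 0.50 to 0.61 below Mir375. This likeness rests on 1 difference between 2 libraries. Of microRNAs known from organs beside the gut, Mir802 differed most. It had 137 CPM in replicate 2 (533 counts) against 1.59 CPM in replicate 1 (24 counts). Its log2 difference, 6.42, was the largest of all 363 tested genes. The low count in replicate 1 left it out of the genes with at least 50 counts in both libraries. Mir802 was named after its values had been looked at.

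The copies of miR-7a did not differ alike. Within a library, Mir7-1 exceeded Mir7-2 4.29-fold in replicate 2 and 10.6-fold in replicate 1, log2 ratios of 2.10 (exact binomial 95% interval 1.85 to 2.36) and 3.41 (3.18 to 3.65). Mir7b exceeded Mir7-1 3.78-fold in replicate 2 and 4.51-fold in replicate 1. The ratio of Mir7-1 to Mir7b thus differed by 0.26 on the log2 scale between the libraries, against 1.31 for Mir7-1 to Mir7-2. The counts that could be assigned to Mir7-2 were the fewest, and reads shared with Mir7-1 are missing from both.

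Mir375 was higher in replicate 2 relative to each of the 4 genes or lists it was set against. This follows from its larger difference between the libraries and is not a separate result. Mir375 exceeded the sum of Mir7-1 and Mir7-2 37.9-fold in replicate 2 and 26.6-fold in replicate 1. Reads missing from that sum may make these ratios too high. Relative to Mir7b, which shares no such stretch, it was 12.4-fold higher in replicate 2 and 6.46-fold in replicate 1. No test was run on these ratios, since an exact permutation test over so few libraries cannot pass the threshold, and their intervals cover counting error only.

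**Figure D3:**
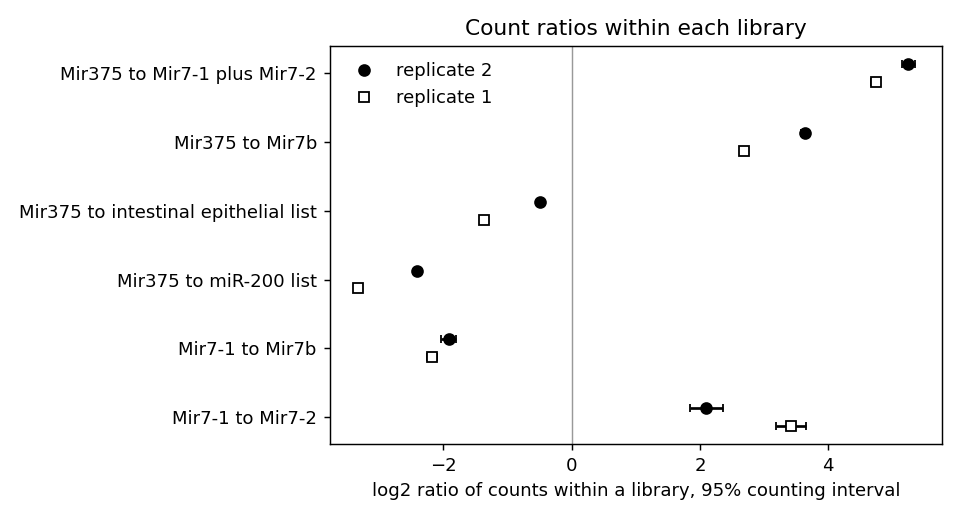
Log2 ratios of counts within a library, with filled circles for replicate 2, open squares for replicate 1 and bars for exact binomial 95% counting intervals. The 4 ratios with Mir375 on top are higher in replicate 2, by 0.51 to 0.94, and the ratio of Mir7-1 to Mir7-2 is 1.31 lower.

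Epithelial microRNAs were also higher in replicate 2, by less than Mir375, as 225 of the 363 tested genes were higher there by any amount. The intestinal epithelial genes Mir192, Mir194-1, Mir194-2 and Mir215, known from differentiated gut epithelium, had a sum of 11362 CPM in replicate 2 against 8980 CPM in replicate 1, or 1.27-fold. All 4 passed the exact test as higher in replicate 2, as did 29.8% of all tested genes. Their median log2 difference was 0.42, beside 0.06 over all tested genes. The ratio of Mir375 to this list was -0.50 on the log2 scale in replicate 2 and -1.36 in replicate 1, a gap of 0.87. Mir194-1 and Mir194-2 share sequence, so that the sum is uncertain. Without them the ratio was 0.10 in replicate 2 and -0.82 in replicate 1, so that Mir375 exceeded the list of the remaining pair in replicate 2 and not in replicate 1. The miR-200 family keeps cells epithelial by repressing Zeb factors, and its genes share no such stretch. Its sum was 42892 CPM in replicate 2 against 35028 CPM in replicate 1, with all 5 genes called higher and a median of 0.32. The ratio of Mir375 to it was -2.41 in replicate 2 and -3.32 in replicate 1, a gap of 0.91. The gaps relative to the epithelial lists, 0.87 and 0.91, stand beside the difference of 1.20 in Mir375 itself. The part of epithelial content in that difference was not tested.

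Other microRNAs linked to endocrine or sensory cells did not show differences of this size. The list of 13 such genes held Mir375, the 3 miR-7 genes, Mir184, Mir153, Mir129-1, Mir129-2, Mir204, Mir211, Mir182, Mir183 and Mir96. Mir129-1 and Mir129-2 share sequence, so that their counts are uncertain. Of the 10 besides Mir375, Mir7-1 and Mir7-2, 9 could be tested, and their median log2 difference was 0.06. Of these 9, 4 were called higher in replicate 2, beside 29.8% of all tested genes, and none lower. The 4 were Mir7b, Mir96 (0.23), Mir182 (0.07) and Mir183 (0.06), the last 3 being genes of the sensory cell cluster. Mir182 reached 5938 CPM in replicate 2 against 5660 CPM in replicate 1, so that it stood below Mir375 in replicate 2 and above it in replicate 1. Mir153, known from neurons and islets, stood at 28.7 CPM in replicate 2 against 27.4 CPM in replicate 1, and its interval included no change (-0.25 to 0.37). Mir184 (14.6 and 14.3 CPM in replicates 2 and 1) and Mir204 (12.3 and 13.1 CPM) were low, and Mir211 had no count, so that its level may reach 0.769 CPM in replicate 2 against 0.199 CPM in the deeper replicate 1, with 3 counts as the limit.

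**Figure D4:**
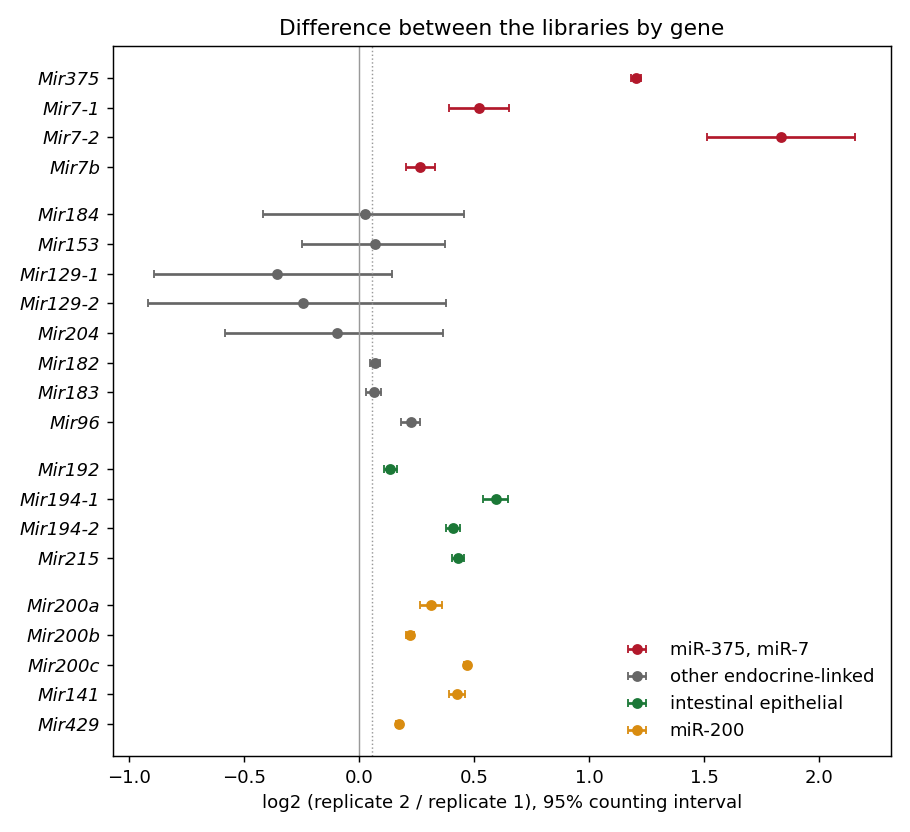
Log2 difference between replicate 2 and replicate 1 with its 95% counting interval for Mir375, the miR-7 genes, the other tested endocrine-linked genes, the intestinal epithelial genes and the miR-200 genes. The solid line marks no difference and the dotted line the median of the tested genes, 0.06. Mir375 and Mir7-2 lie to the right of all other genes drawn, and the intervals of Mir184, Mir153, Mir129-1, Mir129-2 and Mir204 include no difference.

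Some genes of other cell types were also higher in replicate 2, to be read beside the 29.8% of all tested genes called so. Exocrine pancreas genes (Mir216a, Mir216b and Mir217) together had 12.04 CPM in replicate 2 against 5.77 CPM in replicate 1. The 2 that could be tested, Mir216b and Mir217, passed as higher. Mir216b had a log2 difference of 1.84 (counting interval 0.57 to 3.08), beside 1.84 for Mir7-2 (1.51 to 2.16). That of Mir217 was 0.84 (0.18 to 1.47). Mir216b rested on 12 counts in replicate 2 and 13 in replicate 1. No gene of this list was at 0 or had more than 67 counts in a library. Of the erythroid genes, 3 of 3 were tested and 1 passed, Mir451a, and they had a sum of 409 CPM in replicate 2 against 258 CPM in replicate 1. Neuronal genes, 14 of 15 measured and 10 tested, had a sum of 3146 CPM in replicate 2 against 2777 CPM in replicate 1, with 5 called higher and none lower. In that list Mir124a-2, Mir124a-3 and Mir9-2 were at 0 in both libraries. Sequence shared by these genes was not checked. Reads with several alignments went to no gene, so a count of 0 does not show absence. The smooth muscle genes Mir143 and Mir145a had a lower sum in replicate 2, at 149642 CPM against 171528 CPM in replicate 1. Mir143 was called lower, while Mir145a stood at 3597.1 CPM in replicate 2 and 3566.5 CPM in replicate 1. Leukocyte genes, 3 of 4 measured and tested, had a sum of 557 CPM in replicate 2 against 448 CPM in replicate 1, with 2 called higher. The unmeasured gene was Mir142, which had no row. The row of Mir142b held only opposite-strand counts, 2730 in replicate 2 and 8096 in replicate 1, which entered no sum. The liver gene Mir122 was called higher (51.0 CPM in replicate 2, 39.8 CPM in replicate 1), as was the endothelial gene Mir126a (24174 CPM in replicate 2, 23478 CPM in replicate 1). Of the 4 mesenchymal genes 1 was called higher and 1 lower, and their sum was 11205 CPM in replicate 2 against 9708 CPM in replicate 1. The part of the cell makeup of each intestine, of neighbouring tissue taken with it, or of the day of collection in the higher Mir375 and Mir7-2 was not tested.

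The counts kept to one strand. Mir375, Mir7-1 and Mir7-2 had no count on the opposite strand in either library, as had 88.7% of the tested genes. For Mir375 this allows an opposite-strand share of up to 0.00954% in replicate 2 and 0.00569% in replicate 1, and for Mir7-2, with its low counts, up to 1.91% and 1.76%.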

How the data were processed

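The authors deposited whole-number read counts per gene, 1 table per library. Per the labels, the input was total RNA and the inserts were shorter than 30 bases. Separate columns hold counts of both strands, of the gene's own strand and of the other one, as read from the values. The build is mm10 and the annotation GENCODE M4, per the text files deposited with the tables. The aligner, trimming and counting program are not given in the sources used here. Rows of unaligned reads (13.8% of replicate 2 and 12.4% of replicate 1), of reads with several alignments and of reads on no gene (2.10% and 2.20%) entered neither totals nor tests.

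Symbols and coordinates came from GENCODE M21, in which 1894 of 1973 identifiers were found. Levels are counts on the gene's strand scaled to 1000000 per library. Differences are log2 of replicate 2 over replicate 1, tested across genes with the exact binomial test (scipy 1.17.1), Benjamini-Hochberg threshold 0.05. The test was checked on simulated counts that held known changes and counting error only. That check does not cover variation between libraries. With 1 group, edgeR's quasi-likelihood test could not be used. Shared sequence means 20 identical bases in a row, on either strand, with a GENCODE or RefSeq hairpin at another place. Alternatives were other library totals, edgeR 4.0.16 TMM factors, DESeq2 1.42.0 size factors, both strands, other count minimums, thinning and single libraries. Named relatives were the remaining miR-7 gene, the 5 genes nearest to Mir375 in difference, and the 3 next above and 3 next below each gene in level. The members and lists were chosen with earlier results of these data known. The p-values measure the difference between these 2 libraries alone.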

Additional observations from a re-analysis of the deposited data

How the results depend on the processing

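The differences of Mir375, Mir7-1 and Mir7-2 kept their direction and their call under all 8 alternatives run for each. Their log2 values ranged from 1.14 to 1.20 for Mir375, from 0.46 to 0.57 for Mir7-1 and from 1.77 to 1.94 for Mir7-2, the lowest with TMM factors. Dropping or raising the count minimum could not change these log2 values and altered only the adjustment. Counting both strands altered the totals and the adjustment but not the members' counts, which held none on the opposite strand. Scaling to all reads in the table, mostly adding reads with several alignments and unaligned reads to the total, put Mir375 at 3247, Mir7-1 at 82.4 and Mir7-2 at 14.4 CPM. The share of genes past 2-fold in either direction moved with the genes tested. It was 33.2% of 768 genes with no minimum, where genes with few counts enter, 0.722% of 277 genes with at least 50 counts in both libraries, and 1.14% of 352 genes with both depth and minimum changed (replicate 1 thinned to the depth of replicate 2, at least 20 counts in all). With Mir7b added to Mir7-1 and Mir7-2, the log2 ratio of Mir375 to the sum was 2.80, because Mir7b holds most of their counts. Without Mir194-1 and Mir194-2, the ratio of Mir375 to the intestinal epithelial list was 0.10 in replicate 2 and -0.82 in replicate 1, so that its sign differed between the libraries. No paired analysis was possible because the series holds 1 group. Reads with several alignments limit what the miR-7a counts mean.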
